A study of Danio rerio with 24 samples.

Results

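MicroRNA signals were described in zebrafish embryos of the wildtype TL strain at 60 hours post-fertilization (hpf). The embryos had been exposed to DMSO, the vehicle, for 1 h starting at 30 hpf, so every sample described here carries that vehicle exposure. The series compared this vehicle with TCDD on 2 array types in 24 samples; the values below come from the 3 Agilent arrays of vehicle-exposed embryos at 60 hpf and no other group was set against them. Every zebrafish name that the arrays' files give outside the control spots was taken, which gave 217 miRNA names among 231 fish miRNA names, read through 460 of 490 probes. Per the series' design text the 3 samples were biological replicates. The labels name embryos as the tissue and give no dissection, no sorting and no number of embryos per sample, so a miRNA made by few cells and one made at a low level by many cells cannot be told apart.

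MicroRNAs are short RNAs cut from a hairpin precursor. One strand of the cut duplex is usually loaded into an Argonaute protein as the guide, which pairs with messenger RNAs through the seed near its 5′ end and lowers their translation and stability, while the other strand, marked here with a star as in the array's names, is mostly degraded. Many miRNAs are made mainly in a single tissue: miR-1, miR-133 and miR-206 belong to muscle, miR-9 and miR-124 to the nervous system, miR-451 to red blood cells and miR-205 to skin.

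The level of a miRNA is the mean fluorescence of the repeated spots of its brightest probe, in the scanner's processed intensity units after background subtraction. For means over arrays it was divided by the 75th percentile of its array (9766, 9928 and 8120 units on arrays 1, 2 and 3) and put on the log2 scale, so that 0 lies at that percentile. A miRNA was called detected on an array when at least 0.5 of the spots of one of its probes were marked well above background by the scanner software. The order below is an order of brightness. Probes differ in length and affinity, so it is not an order of molecule number.

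The probes of the brightest miRNAs show what was read. A probe is antisense to its miRNA, and the 5′ end of the probe lies over the 3′ end of the miRNA. The following are the brightest probes of the 10 brightest miRNAs, 5′ to 3′ as the deposited array files give them. Capitals mark the longest run of bases shared with a probe of another zebrafish miRNA on the array.
miR-9: tCATACAgctagataacca
miR-19b: tcAGTTTTGCATGGATttgc
miR-20a: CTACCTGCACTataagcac
miR-206: CCACACActtccttac
miR-133b: tAGCTGGTTGAAGGGGAcc
miR-130c: ATGCCCTTTTAAtattgcac
miR-9*: actTTCGGTTatctagctt
miR-17a: TACCTGCACTGTaagca
miR-1: atacatacttcTTTACATtcc
miR-205: cagactccggTGGAAT

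The shared runs of miR-9 (6 bases of 19), miR-206 (7 of 16), miR-9* (7 of 19), miR-1 (7 of 21) and miR-205 (6 of 16) were short and fell on unrelated miRNAs. A longest run does not measure likeness that is broken by scattered differences. The printed probes of the muscle miRNAs miR-206 and miR-1 are alike in that way, so short runs do not mean that no similar probe was present. Those of miR-133b (16 of 19, with miR-133a), miR-19b (14 of 20, with miR-19c), miR-17a (12 of 17, with miR-20b), miR-130c (12 of 20, with miR-130a) and miR-20a (11 of 19, with miR-20b) fell on members of the same family. Of the 112 miRNAs detected on every array, 46 had a run of 12 or more bases in common with another name, and the median run was 11 bases. Whether a probe also bound a relative of its own miRNA was not tested.

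The 3 arrays ranked the miRNAs alike but did not reach equally far down. Arrays 1, 2 and 3 detected 148, 112 and 136 names, which is 68.2%, 51.6% and 62.7% of the 217. After background subtraction, the negative-control spots were highest and most spread on array 2. Its 434 spots had a median of 127 units and an SD of 174. Arrays 1 and 3 had medians of -5.76 and 0.246 and SDs of 61.5 and 46.3. Undetected names strayed both ways on array 2. On arrays 1, 2 and 3 miR-736 read -33.0, -552 and -76.5 units, and miR-92b 35.9, 767 and 89.1 units. The lowest spot still marked well above background had 1065 units on array 2, and 179 and 252 units on arrays 1 and 3. Array 1 lay on slide 1 and arrays 2 and 3 on slide 2, and a part of the slide in these differences was not tested. Over the 112 names detected on every array the log2 signals correlated at Pearson r = 0.991 (arrays 1 and 2), 0.997 (arrays 1 and 3) and 0.995 (arrays 2 and 3), as a description across miRNAs, which are not replicates.

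Detected on all 3 arrays were 112 names (51.6%), on 1 or 2 arrays 37, and on none 68 (31.3%). The 112 spanned 6.60 log2 units from miR-9 to let-7b, a 97.0-fold range of brightness that is a lower bound because miR-9 was saturated. Their SD over the 3 arrays had a median of 0.076 log2 units and was below 0.1 for 79 of them. The 28 names in the upper 25% of the 112 are called bright here (0.39 to 2.79), the 56 in the middle 50% intermediate (-1.98 to 0.33) and the lowest 28 dim (-3.81 to -2.02). The signals ran on without a gap at these limits. miR-221 (0.39 ± 0.06) and miR-92a (0.33 ± 0.11) lay on either side of the upper one, and miR-210 (-1.98 ± 0.07) and miR-430c (-2.02 ± 0.07) on either side of the lower one (SD, n = 3 arrays here and in all later values with ±).

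**Figure D1:**
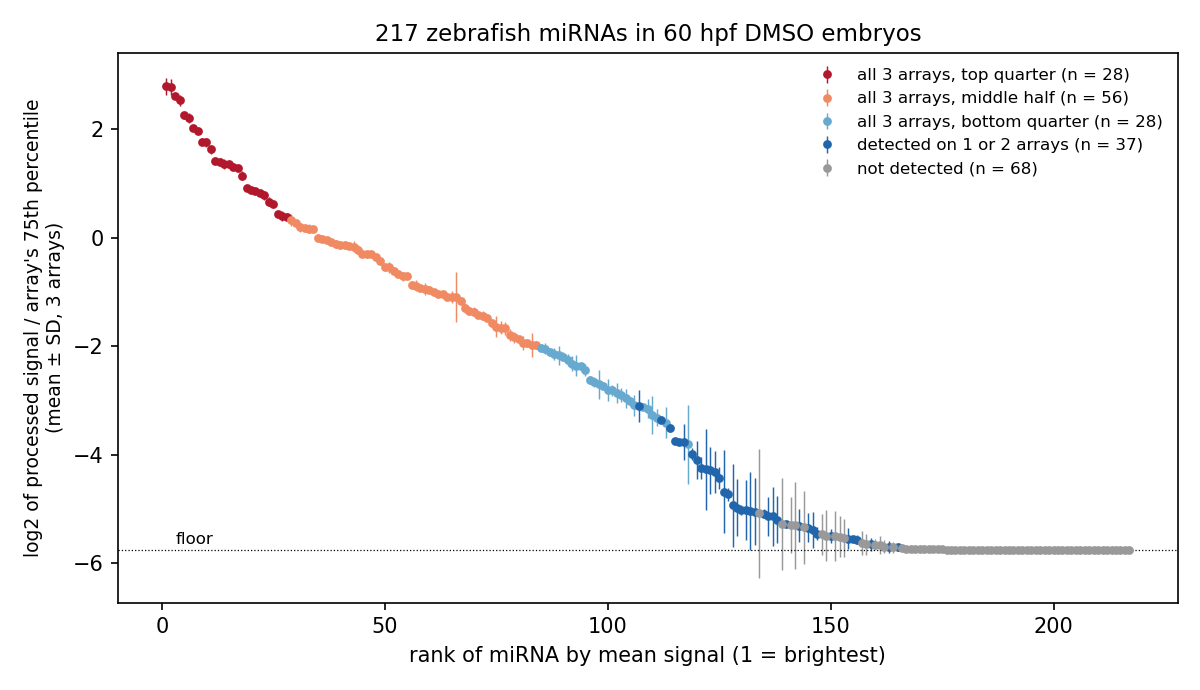
Mean log2 signal (relative to the 75th percentile of each array) of 217 zebrafish miRNAs against their rank, with bars for the SD over 3 arrays of 60 hpf DMSO embryos. Colours give the 5 classes of detection and brightness, the dotted line is the floor at -5.77, and the 28 bright names lie between 0.39 and 2.79.

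The signal was spread over many miRNAs. The 10 brightest names held 39.3 ± 0.61% of the signal summed over the 112, the 25 brightest held 65.2 ± 0.30%, and 15 names were needed to hold 50% of it. miR-9 alone held 5.46 ± 0.39%, and since its spots were saturated these shares are open to that limit of the scanner.

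miR-9, the miRNA of neural progenitors, and miR-19b, a member of the growth-associated miR-17-92 cluster, were at the top of the scanner's range. miR-9 had 64534, 63779 and 63762 units on arrays 1, 2 and 3, with 8, 9 and 6 saturated spots. miR-19b had 64086, 63886 and 63079 units, with 10, 9 and 7 saturated spots. Their values are lower limits on all 3 arrays, and no order is read between them. Without scaling both SDs were 0.01 log2 units, against 0.16 for miR-9 and 0.15 for miR-19b with it. The ± values of these names therefore come mainly from the scaling of readings at the scanner's limit. miR-20a, of the same cluster as miR-19b, had 58582, 60660 and 50897 units, with 5 saturated spots on array 2 alone. miR-206, a miRNA of skeletal muscle, had 53569, 56509 and 50899 units, with 1 saturated spot on array 2. miR-20a and miR-206 did not keep 1 order over the arrays (difference 0.08 ± 0.07 log2 units).

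Next came miR-133b and miR-130c. miR-133b, which is transcribed together with miR-206 in muscle, had 44612, 49072 and 40329 units. It lay below miR-206 on every array, and the gap of 0.27 ± 0.07 log2 units from miR-206 to miR-133b exceeded its spread. miR-130c, of a family that shares its seed with miR-301, had 42328, 45581 and 40046 units and could not be ordered against miR-133b (0.06 ± 0.06 from miR-133b to miR-130c). miR-9*, the other strand of the miR-9 hairpin and in its own right a regulator in neurons, followed with 38607, 40507 and 33975 units. miR-17a, the founding member of the miR-17-92 cluster, had 36996, 39407 and 33039 units.

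miR-1, shared by heart and skeletal muscle, and miR-205, a miRNA of skin and other stratified epithelia, followed as a pair. miR-1 had 32079, 33687 and 29361 units and miR-205 had 31422, 33600 and 29264 units. Their difference of 0.01 ± 0.02 log2 units was smaller than its spread. miR-19a, the near relative of miR-19b, had 28880, 30298 and 26990 units and was the last before a step of 0.21 ± 0.05 log2 units down to the next group.

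Ranks 12 to 17 were close together, between 1.42 and 1.28. miR-125b, which represses p53 in zebrafish, had 24958, 27045 and 22474 units, and miR-10b, encoded within Hox gene clusters, had 24588, 26976 and 22234 units. miR-124, the most characteristic miRNA of differentiated neurons, had 25934, 23650 and 22021 units. It was above miR-125b and miR-10b on array 1 and below both on array 2, so its place among them is not settled. miR-430b, of the family that clears maternal messenger RNAs in the early zebrafish embryo, had 24151, 25006 and 21898 units. miR-204, a miRNA of lens and retinal pigment epithelium, had 23181, 25137 and 20726 units, and miR-130b had 23077, 23870 and 20609 units. miR-199, found in mesenchyme, had 20273, 22734 and 18823 units and was lower than all 6 on every array.

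The last 7 of the 25 brightest were also close together, from 0.91 to 0.63. They were miR-181a (0.91 ± 0.06), the miR-92 relative miR-25 (0.88 ± 0.04), miR-26b (0.87 ± 0.05), miR-430a (0.83 ± 0.04), the skin miRNA miR-203b (0.78 ± 0.08), the miR-17-92 paralogue miR-18c (0.67 ± 0.09) and miR-22a (0.63 ± 0.05). Among the 24 pairs of neighbours in the first 25 ranks, 11 kept 1 sign on every array with a mean difference above its SD. Over all 112 detected names, 30 of 111 neighbouring pairs did. Both counts include miR-19b over miR-20a. These 2 names both had saturated spots on array 2, so their order on that array is not read. The remaining bright names were miR-153c (0.45 ± 0.05), a miRNA of the brain, miR-200a (0.40 ± 0.09), a miRNA of epithelia, and miR-221.

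**Figure D2:**
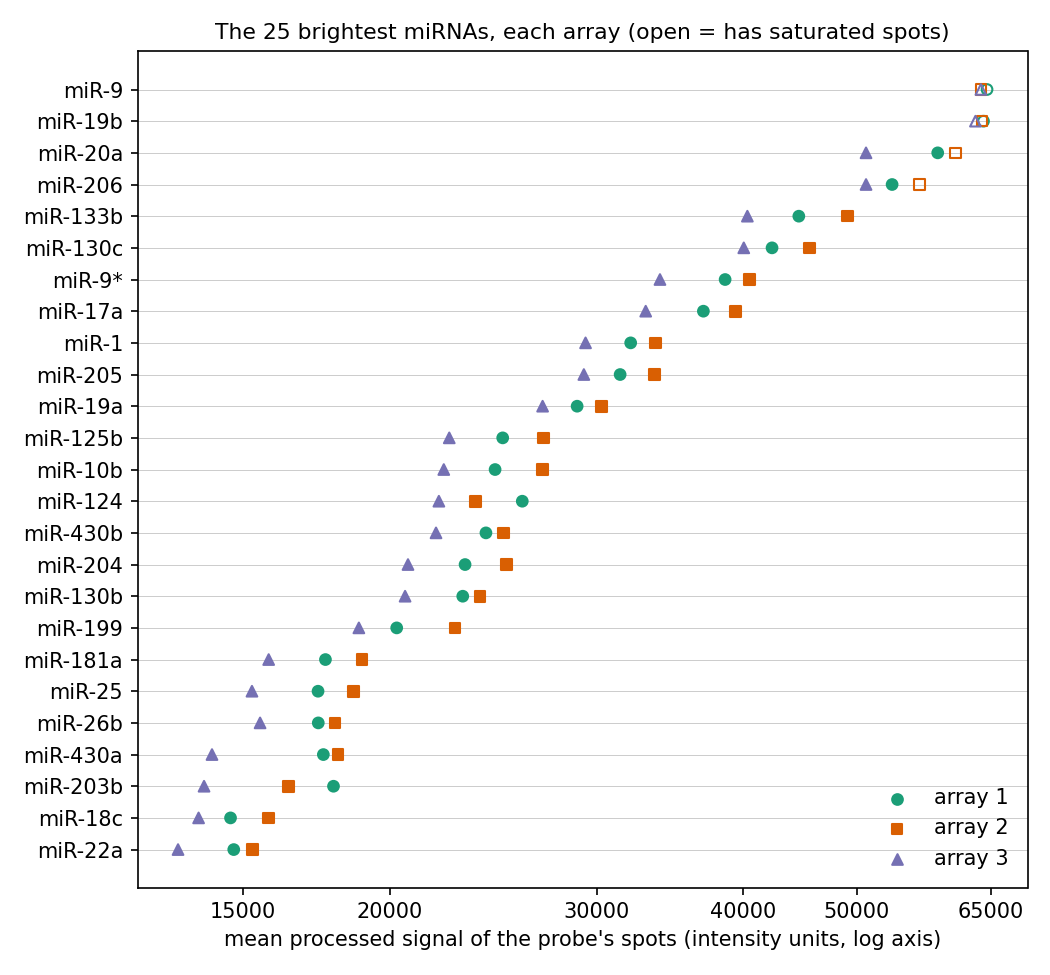
Processed signal of the brightest probe of each of the 25 brightest miRNAs (log axis, intensity units) on each of 3 arrays of 60 hpf DMSO embryos. Open symbols mark arrays with saturated spots, which are miR-9 and miR-19b on all 3 arrays and miR-20a and miR-206 on array 2; the order of the arrays is nearly the same for each miRNA, and the signals shown are unscaled.

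Muscle miRNAs were all detected (6 of 6 names, against 51.6% of all names) and together held 11.8% of the summed signal. The same 51.6% is the measure for the counts of every list below. miR-206 (2.53 ± 0.10), miR-133b (2.26 ± 0.06) and miR-1 (1.78 ± 0.07) were bright. miR-133a, which is paired with miR-1 in heart and skeletal muscle, was intermediate (-0.95 ± 0.11), as was miR-499 (-1.66 ± 0.12), encoded within a myosin heavy chain gene of slow and heart muscle. miR-133c was dim (-3.41 ± 0.28), with 805, 1173 and 700 units on arrays 1, 2 and 3. The probes of the miR-133 members are nearly alike, and they are shown because the 3 signals lie far apart. Capitals mark the bases that differ from the probe of miR-133b.
miR-133b: tagctggttgaaggggacc
miR-133a: Cagctggttgaagggga
miR-133c: tagctggttgaaAggga

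The nervous system list had 9 of 14 names detected on all 3 arrays, against 51.6% of all names, and held 10.4% of the signal. It leaves out the starred strands miR-9* and miR-129*, both detected on all 3 arrays, while the cartilage and mesenchyme list below counts its stars. The share also rests on the saturated miR-9, so the shares of the lists are not ordered against each other. After miR-9, miR-124 and miR-153c came miR-153a (-0.11 ± 0.08), miR-218a (-0.71 ± 0.04), known from motor neurons, miR-153b (-1.84 ± 0.10), miR-7a (-1.94 ± 0.08), miR-138 (-2.81 ± 0.20) and miR-219 (-3.12 ± 0.04), a miRNA of oligodendrocytes. miR-218b had 977, 934 and 827 units and was called detected on arrays 1 and 3 but not on array 2. miR-132 and miR-128, which belong to mature neurons in mammals, were detected on 1 array each, at 198, 251 and 183 units and at 212, 154 and 196 units. miR-137 and miR-129 were detected on none. The neural list therefore ran from a saturated name to names under the limit of detection.

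Epithelial miRNAs were all detected (8 of 8) and held 7.78% of the signal. miR-205 (1.76 ± 0.08), miR-203b (0.78 ± 0.08) and miR-200a (0.40 ± 0.09) were bright, and miR-200b (0.27 ± 0.05), miR-203a (-0.08 ± 0.06) and miR-429 (-0.17 ± 0.10) were intermediate. miR-200c (-2.11 ± 0.06) and miR-141 (-2.73 ± 0.04), which lie together in the genome, were dim. The hair cell and retinal miRNAs were detected in full (3 of 3): miR-96 (0.18 ± 0.06) and miR-182 (-0.30 ± 0.07) were intermediate and miR-183 (-2.96 ± 0.18) was dim. In the lens and retina list miR-204 was bright (1.31 ± 0.06), miR-184, a miRNA of lens and cornea, was dim (-2.19 ± 0.09), and miR-187 was detected on no array.

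Blood, vessel and mesenchyme miRNAs differed in how far they were seen. miR-451, which matures in red blood cells through Argonaute cleavage, had 9509, 9681 and 8132 units (-0.03 ± 0.02). miR-144, made from the same transcript, had 1250, 912 and 1090 units and was called detected on arrays 1 and 3. The leukocyte list had 1 of 8 names on every array: miR-223, a miRNA of neutrophils and macrophages, at 885, 1129 and 832 units. miR-142a-3p, common to blood cells, was detected on 2 arrays (-3.76 ± 0.05), miR-155 on 1, and miR-142a-5p, miR-142b-5p, miR-150, miR-146a and miR-146b on none. The endothelial miR-126 was intermediate (0.17 ± 0.08). Of the smooth muscle miRNAs, miR-143 was detected on 2 arrays (-4.24 ± 0.21) and miR-145 on none.

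All 5 names of the cartilage and mesenchyme list were detected. They were miR-199 (1.15 ± 0.09), miR-199* (-0.01 ± 0.01), miR-140 (-0.61 ± 0.07), which controls PDGF signalling in zebrafish palate formation, miR-214 (-0.86 ± 0.07) and miR-140* (-0.93 ± 0.05). The digestive organ list had 4 of 8 names on every array, near the 51.6% of all names. The pancreas miRNAs miR-216b (-1.09 ± 0.07), miR-216a (-1.44 ± 0.09) and miR-217 (-2.25 ± 0.12) and the gut and liver miRNA miR-192 (-2.82 ± 0.10) made up the 4. miR-122, the hepatocyte miRNA, had 792, 574 and 707 units and was called on arrays 1 and 3, and miR-194a, miR-194b and the islet miRNA miR-375 were called on none. Of the stress-associated names, miR-21 was intermediate (0.16 ± 0.02), as were the p53 target miR-34 (-1.93 ± 0.13) and the hypoxia miRNA miR-210 (-1.98 ± 0.07). miR-34c was called on 1 array and miR-34b on none.

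Among families without a single tissue, the miR-17-92 cluster and its paralogues stood out in signal. They had 13 of 15 names detected, 6 of them among the 25 brightest of all 217 names, and held 22.6% of the summed signal. This share rests in part on miR-19b, saturated on every array, and on miR-20a, with saturated spots on array 2. It is not ordered against the shares of the other lists. miR-19c was detected on 2 arrays (-4.44 ± 0.20). miR-92b was called on none although it read 767 units on array 2, where the lowest spot marked well above background had 1065 units. The miR-19 and miR-17/20 probes are shown because a small change of bases goes with a wide spread of signals. Capitals mark bases that differ from the first probe of each set over the part they have in common.
miR-19b: tcagttttgcatggatttgc
miR-19a: tcagttttgcatAgatttgca
miR-19d: tcagttttgcatggGtt
miR-19c: CGagttttgcatggat
miR-20a: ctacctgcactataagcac
miR-17a: tacctgcactGtaagca
miR-20b: ctacctgcactGt

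In the miR-19 set the mean log2 signals were 2.79 ± 0.15 for miR-19b, 1.63 ± 0.09 for miR-19a, -0.67 ± 0.04 for miR-19d and -4.44 ± 0.20 for miR-19c. In the other set they were 2.61 ± 0.03 for miR-20a, 1.98 ± 0.05 for miR-17a and -1.64 ± 0.20 for miR-20b. The miR-20b probe has 13 bases, of which 12 also lie in the miR-17a probe. The members differ in level and in probe length together, and the part of each in the signal was not tested.

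The let-7 family, which promotes differentiation and comes on late in animal development, had 6 of 10 names detected, against 51.6% of all names. None was bright. The order was let-7a (-0.71 ± 0.08), let-7f (-1.35 ± 0.08), let-7g (-2.17 ± 0.17), let-7c (-2.36 ± 0.19), let-7d (-3.15 ± 0.18) and let-7b (-3.81 ± 0.73). let-7e was called on 1 array, and let-7h, let-7i and let-7j on none. The probes of let-7a, of the dimmest detected member and of a member not detected are set side by side because they cover the same stretch of the miRNA. Capitals mark bases that differ from the let-7a probe.
let-7a: aactatacaacctactacct
let-7b: aacCaCacaacctactacc
let-7i: aacAGCacaaActactacct

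let-7b was the dimmest name detected on every array and also the one with the largest spread, at 412, 1120 and 642 units on arrays 1, 2 and 3. The companions of let-7 in its gene clusters were detected in full: miR-125b at 1.42 ± 0.06, miR-100 at -0.14 ± 0.07, miR-99 at -0.22 ± 0.08, miR-125c at -1.49 ± 0.05 and miR-125a at -2.71 ± 0.27 (5 of 5). In the Hox-embedded list 5 of 6 names were detected: miR-10b (1.41 ± 0.06), miR-10a (-0.03 ± 0.04), miR-10d (-1.67 ± 0.12), miR-196a (-1.87 ± 0.05) and miR-10c (-2.05 ± 0.11). miR-196b was called on 2 arrays.

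The miR-430 family, best known from the first hours of development, was still read at 60 hpf through 4 of 5 names. miR-430b (1.35 ± 0.06) and miR-430a (0.83 ± 0.04) were bright, miR-430j was intermediate (-0.88 ± 0.10), miR-430c was dim (-2.02 ± 0.07), and miR-430i lay at the floor on all 3 arrays. Other families were seen in part. The miR-130 and miR-301 family had 5 of 6 names (miR-130c the brightest), the miR-15, miR-16, miR-103 and miR-107 group 7 of 10 with miR-16c at the top (-0.29 ± 0.06), and the miR-30 family 4 of 5 with miR-30b at the top (-0.54 ± 0.07). The miR-181 family had 2 of 2 names (miR-181a the brighter), the miR-23, miR-24 and miR-27 group 3 of 8 with miR-23b at the top (-1.16 ± 0.07), and the miR-26, miR-29 and miR-101 group 2 of 6, namely miR-26b and miR-26a (-0.95 ± 0.07).

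**Figure D3:**
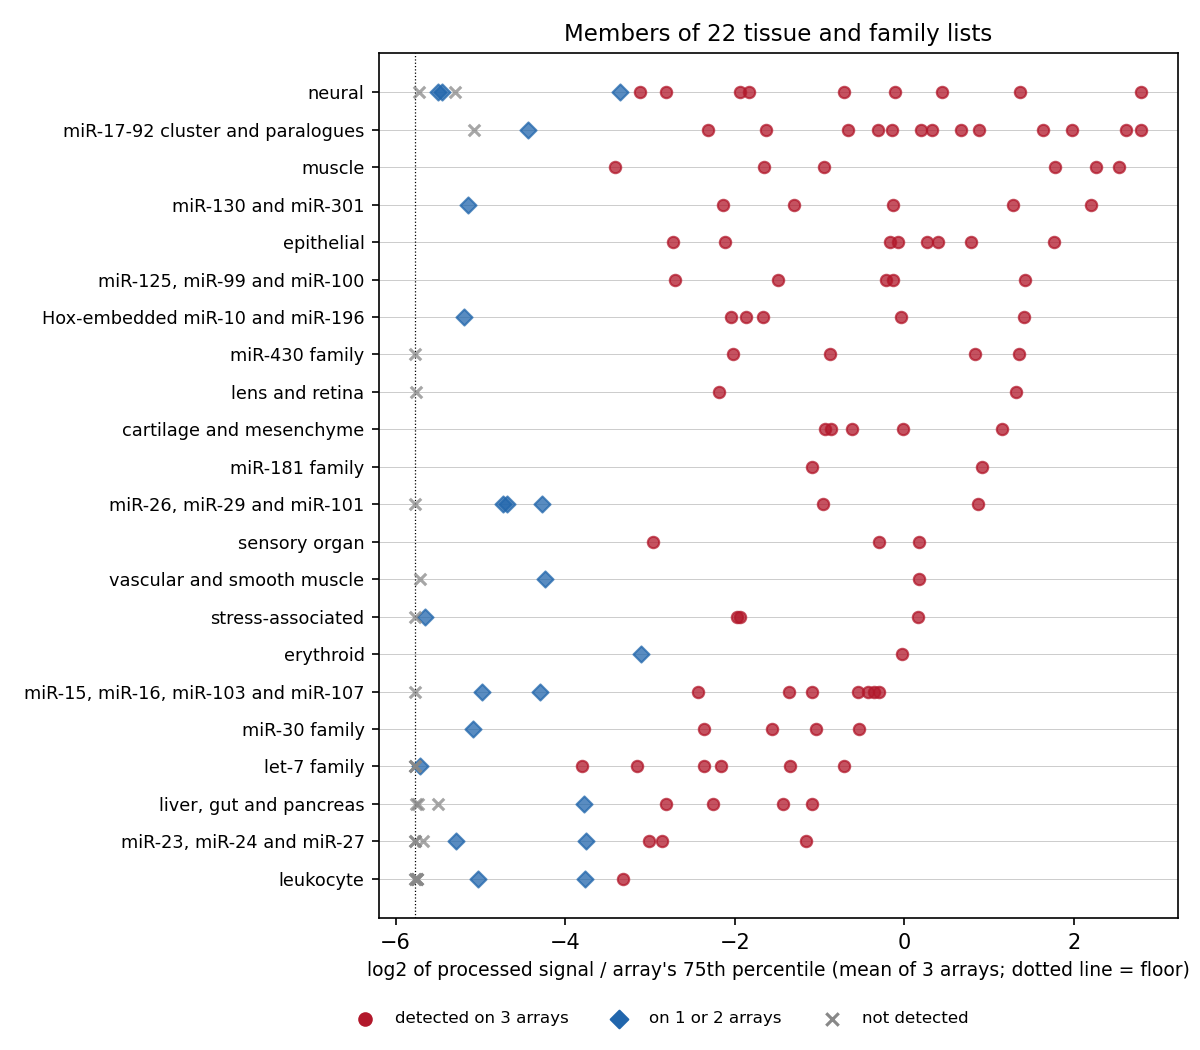
Mean log2 signal (relative to the 75th percentile of each array, 3 arrays of 60 hpf DMSO embryos) of each member of 22 tissue and family lists; circles mark names detected on all 3 arrays, diamonds names detected on 1 or 2, crosses names detected on none, and the dotted line the floor. The neural and miR-17-92 lists reach from 2.79 to below detection, while all muscle, epithelial, sensory organ and cartilage names were detected.

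The 22 lists covered 143 of the 217 names, and 99 of those 143 were detected on every array, against 13 of the 74 names in no list. Of the 28 bright names 25 were in a list. The names outside the lists included 20 numbered 722 to 740. Of these 20, starred strands included, miR-738 (-2.66 ± 0.08) and miR-725 (-3.09 ± 0.19) were detected on every array, miR-724 on 2, and 17 on none. The lists were drawn up from well-known miRNAs and with earlier results of these data known. This division therefore describes the lists and was not tested.

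In the middle of the detected range lay miR-214, miR-430j, miR-140*, miR-133a and miR-26a, the 5 names nearest the median of -0.87. Their signals were between 4223 and 5406 units. At the bottom lay let-7b, miR-133c, miR-223, miR-365 and let-7d (-3.15 ± 0.18), between 412 and 1326 units. On array 2 these 5 read between 1024 and 1326 units, close to the 1065 units of that array's lowest spot marked well above background.

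Names detected on 1 or 2 arrays were divided unevenly between the arrays. All 23 names missed on exactly 1 array were missed on array 2, and of the 14 found on exactly 1 array, 13 were found on array 1 and 1 on array 3. The 23 were miR-144, miR-218b, miR-182*, miR-27c, miR-142a-3p, miR-122, miR-139, miR-135c, miR-143, miR-101a, miR-16a, miR-210*, miR-19c, miR-101b, miR-29a, miR-15a, miR-458, miR-724, miR-454b, miR-30a, miR-203b*, miR-301b and miR-196b. Several of them read as high on array 2 as on the others, such as miR-182* with 822, 921 and 717 units and miR-135c with 633, 732 and 384 units. Others read much lower on array 2, such as miR-454b with 400, 11.0 and 300 units and miR-101b with 539, 150 and 419 units. The 14 were miR-193a, miR-155, miR-27b, miR-17a*, miR-22b, miR-126*, miR-132, miR-128, miR-190b, miR-10a*, miR-148, miR-34c, miR-20a* and let-7e. They had mean log2 signals near the floor, with miR-193a the highest at -4.93 ± 0.77. Array 2 was also the array with the highest and most spread negative-control spots, and its part in these calls was not tested.

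The 68 names detected on no array included 36 at the floor on all 3 arrays. From the lists they were the neural miR-137 and miR-129, the smooth muscle miR-145, the digestive miR-375, miR-194a and miR-194b, miR-187, the leukocyte names miR-142a-5p, miR-142b-5p, miR-150, miR-146a and miR-146b, and the family members miR-430i, let-7h, let-7i, let-7j, miR-92b, miR-27a, miR-27d, miR-27e, miR-15c, miR-29b and miR-34b. A further 12 were starred strands (miR-10d*, miR-15a*, miR-18b*, miR-19a*, miR-19b*, miR-27c*, miR-132*, miR-133b*, miR-202*, miR-459*, miR-723* and miR-727*). The others were names in no list, among them miR-7b, miR-31, miR-135a, miR-135b, miR-152, miR-190, miR-193b, miR-202, miR-212, miR-220, miR-454a, miR-455, miR-459, miR-460-3p, miR-460-5p, miR-461, miR-462 and miR-489. The highest mean in this class was miR-92b (-5.08 ± 1.19), from its reading on array 2. Not detected means not well above the background of these arrays, which leaves room for a low level.

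The 5 largest SDs among the detected were those of let-7b (0.73), miR-181c (0.46), miR-365 (0.35), miR-133c (0.28) and miR-125a (0.27). miR-181c had 3470, 6616 and 3575 units, miR-365 had 801, 1326 and 826 units, and miR-125a had 1304, 1874 and 1204 units. In each the reading on array 2 was the highest. Of the 10 names with the largest SDs, array 2 held the highest or the lowest value in all 10. It was the farthest from the mean of the other arrays in 8, while let-7b lay farthest on array 1 and let-7c on array 3. Only names detected on every array enter this ranking, and the lowest spot marked well above background on array 2 had 1065 units. On arrays 1 and 3 let-7b, miR-365 and miR-133c read below that. Such names could enter only with a higher reading on array 2, so the detection rule partly sets these counts. The probe of miR-181c has 13 bases and is annotated in the files to miR-181b as well, the only detected name with such a double annotation. The 5 smallest SDs were those of miR-199* (0.01), miR-451 (0.02), miR-18b (0.02), miR-21 (0.02) and miR-20a (0.03). miR-20a had 5 saturated spots on array 2, so its reading there is a lower limit and its SD is open to that.

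Both strands of a hairpin could be read for 28 precursors. Starred strands were detected on every array in 7 of 26 cases (26.9%), and names without a star in 105 of 191 (55.0%). In 6 precursors both strands were detected on all 3 arrays, and the strand without the star was the brighter on each array in all 6. For miR-181a the guide read 17628, 18942 and 15771 units and the star 3575, 3847 and 2994 units, a difference of 2.34 ± 0.05 log2 units. For miR-199 the guide read 20273, 22734 and 18823 units and the star 9700, 9976 and 8060 units, a difference of 1.16 ± 0.09 log2 units. miR-140 had the smallest difference, 0.32 ± 0.06 log2 units, from 6500, 6188 and 5516 units for the guide and 5332, 5063 and 4231 units for the star.

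miR-9 differed from miR-9* by 0.77 ± 0.14 log2 units, a lower bound because miR-9 was saturated. With miR-9 at the scanner's limit, the 0.14 follows mainly the readings of miR-9*. The strands of miR-30e differed by 1.59 ± 0.08 and those of miR-133a by 0.85 ± 0.12 log2 units. In 12 precursors the guide alone was detected on every array. In 5 of them, namely miR-19b, miR-133b, miR-19a, miR-18b and miR-10d, the star was detected on no array. miR-129 went the other way: miR-129* had 2176, 2966 and 2009 units and was detected on every array, while miR-129 was detected on none, with 30.9, 382 and 188 units. The 2 strands are read by probes of different sequence, so these are differences of brightness.

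**Figure D4:**
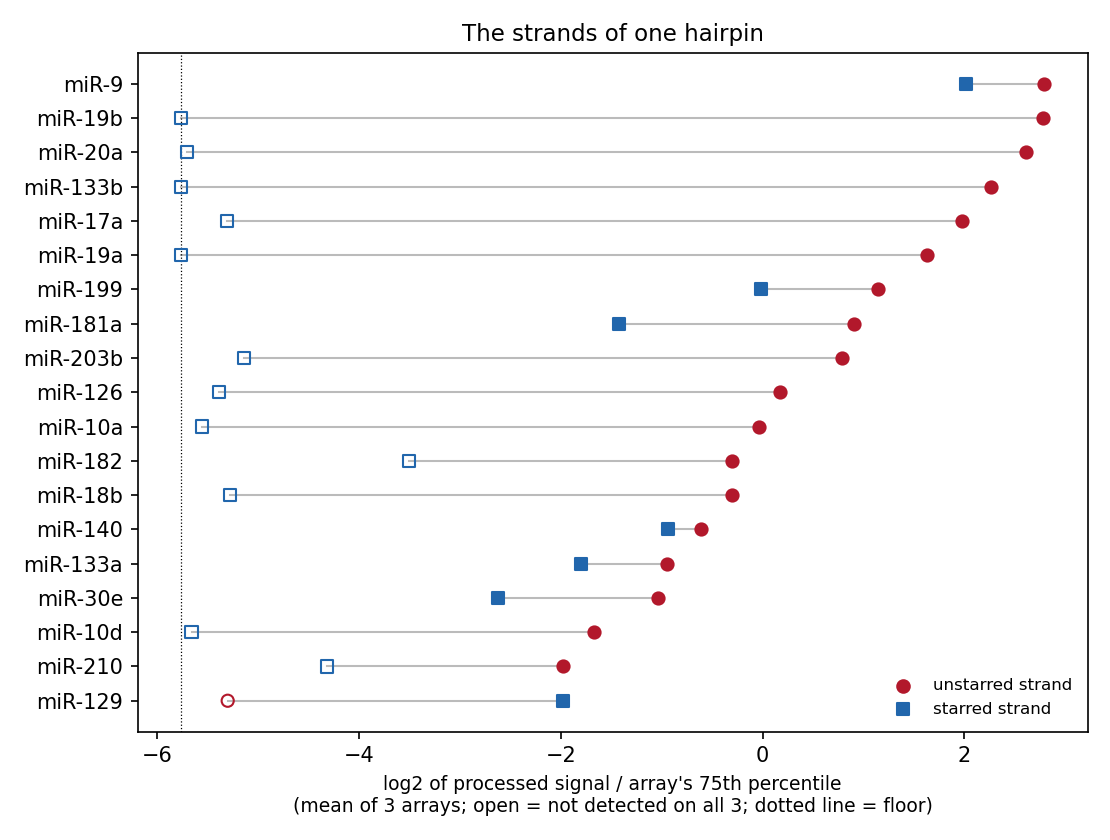
Mean log2 signal (relative to the 75th percentile of each array, 3 arrays of 60 hpf DMSO embryos) of the unstarred strand (circles) and the starred strand (squares) of the 19 hairpins with at least 1 strand detected on all 3 arrays. Filled symbols were detected on all 3 arrays, the dotted line is the floor, and miR-129 is the one hairpin whose starred strand is the brighter.

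Neighbouring hairpins in the genome often differed in brightness. The files place 201 names on chromosomes of the danRer5 build, and hairpins at most 10000 bp apart formed 45 groups. Since some hairpins have copies, these held 42 different sets of names. Every name was detected on all 3 arrays in 18 groups and no name in 8, while 19 were mixed. Of all names, 51.6% were detected on every array, a share of single names that is not a measure for whole groups. Names with copies, such as miR-23a and miR-24, count in several groups. Starred strands counted as names, so a group with every guide detected could be mixed. Some of the 8 hold names detected on fewer arrays. The miR-17-92 group at chr8:45337794-45338621 holds miR-17a, miR-18a, miR-19a, miR-20a, miR-19b and miR-92a within 828 bp, and its 6 guides ran from 0.20 ± 0.09 (miR-18a) to 2.79 ± 0.15 (miR-19b). miR-206 and miR-133b at chr20:18914892-18916220 were 0.27 log2 units apart. The second copy of miR-206 lies beside miR-133c at chr17:5895840-5900127, and the probe of miR-206 reads both copies together, so the 5.95 log2 units between miR-206 and miR-133c cannot be given to that place alone.

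The hair cell group miR-183, miR-96 and miR-182 at chr4:14884996-14886141 spanned 3.14 log2 units, with miR-96 at the top and miR-183 at the bottom. The epithelial group miR-200b, miR-200a and miR-429 at chr23:23553732-23555534 spanned 0.57 log2 units. In miR-451 and miR-144 at chr5:41283987-41284148, 162 bp in all, 1 name was detected on every array and the other on 2. miR-25, miR-19d and miR-93 at chr14:354252-354500 spanned 3.19 log2 units within 249 bp.

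Probes of the same miRNA also differed in brightness. Most miRNAs (196 of 217) have 2 probes, and for 76 detected miRNAs at least 2 probes were detected on every array. In all 76 the shorter probe lay within the longer, and in 75 they differed by 1 base in length. The brightest probe exceeded the dimmest by a median of 1.02 log2 units, which is 2.02-fold, both probes being designed to the same miRNA. In 39 of the 76 the difference was above 1 log2 unit and in 10 above 2. The longer probe was the brighter in 74, and miR-203b and miR-429 were the exceptions. The 4 largest differences and both exceptions are shown, with the last base of the longer probe, absent from the shorter, in capitals.
miR-430a: ctaccccaacaaatagC
miR-199*: aaccaatgtgcagactaC
miR-125b: tcacaagttagggtctC
miR-200b: tcatcattaccaggcaG
miR-203b: caagtggtcctgaacA
miR-429: acggcattaccagacagtA

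For miR-430a the probe with the last base read 17556, 18066 and 14111 units and the probe without it 1600, 1394 and 1362 units, an 11.4-fold difference. For miR-199* the longer probe read 9700, 9976 and 8060 units and the shorter 1302, 1251 and 1047 units. For miR-125b the longer read 24958, 27045 and 22474 units and the shorter 4669, 4880 and 3863 units. In the 4 largest differences every reading of the longer probe lay above every reading of the shorter. The fifth largest was that of miR-21 (4.93-fold), with probes of 15 and 14 bases. For miR-203b, an exception, the longer probe read 12595, 14562 and 9766 units and the shorter 17909, 16394 and 13893 units. Over the 112 detected names the level was nearly unrelated to the length of the brightest probe (r = 0.12, rho = 0.13) and to its GC content (r = -0.05, rho = -0.04), across probes of different miRNAs and as a description.

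**Figure D5:**
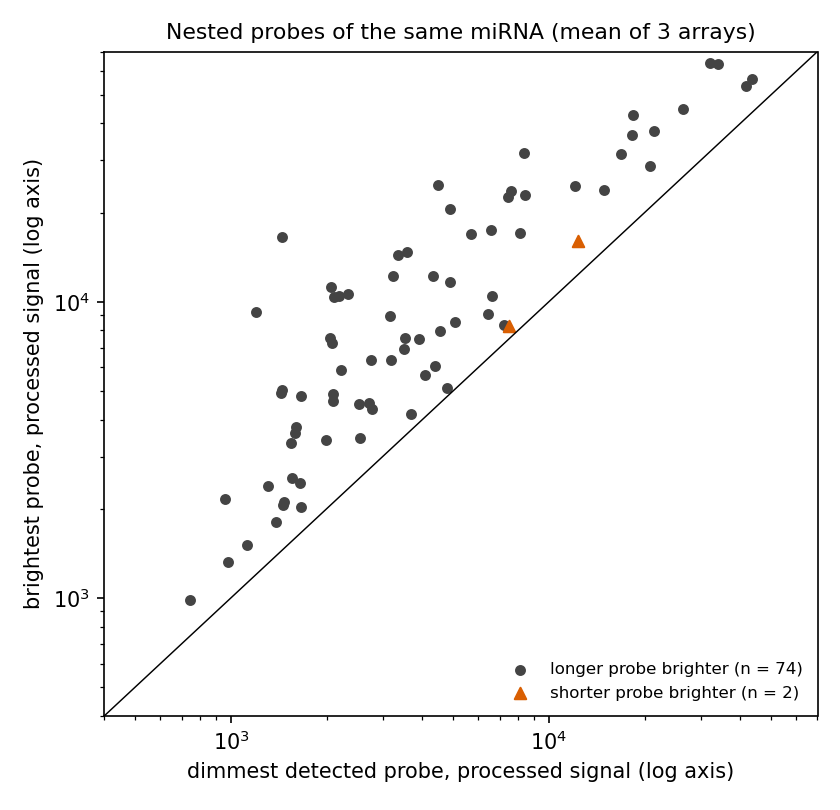
Mean processed signal of the brightest probe against that of the dimmest detected probe for 76 miRNAs with at least 2 detected probes (log axes, intensity units, mean of 3 arrays of 60 hpf DMSO embryos); the line marks equal signals. The longer probe was brighter for 74 miRNAs (circles) and the shorter for 2 (triangles), and miR-430a lies farthest from the line at 11.4-fold.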

How the data were processed

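RNA of 3 vehicle-exposed samples was labelled with Cy3 and hybridised to custom 1-colour Agilent miRNA arrays, per the labels. The intensity values deposited by the authors are processed signals of Feature Extraction 9.5, per the submitters' processing notes (9.5.3.1 per the file headers): spot intensities after background subtraction, with no scaling between arrays. The flags for well above background, saturated and outlier (other codes, not measurements) were set by that program, per the file headers. The deposited value table equals the processed signal (largest difference 0).

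Outlier spots (4.19%, 5.83% and 4.98% on arrays 1, 2 and 3) were left out. Each array was divided by its 75th percentile over the 191 miRNA probes detected on all 3 arrays, values below the lowest scaled signal marked well above background (0.0184) were set to it, and the log2 of the spots was averaged per probe. A miRNA took its brightest probe by the mean over arrays. The number of arrays limits the precision. Named miRNAs were the 25 brightest, the 5 nearest the median, the 5 dimmest detected, all those on 1 or 2 arrays, all saturated, the 5 with the largest and smallest SDs, the 5 with the largest probe differences (the first 4 given with their bases), and list members; others, such as miR-31 and miR-202, were chosen after their values were seen. The groups by seed that had been planned were not formed, as full mature sequences were not used here. Neighbours in the order were called apart when their difference had 1 sign on 3 of 3 arrays and its mean exceeded its SD. No test was made: with 3 arrays a two-sided sign test cannot go below 0.25. The members and lists were chosen with earlier results of these data known. The calculations were checked on simulated data without saturated or outlier spots and with the same detection limit on every array. The handling of saturation, outliers and unequal limits was therefore not checked. Python 3.11.15, numpy 2.4.6, pandas 2.3.3, scipy 1.17.1 and matplotlib 3.10.9 were used, with R 4.3.3 and limma 3.58.1 for the background alternative (normexp, offset 50). The alternatives were other spot and probe summaries, scalings, background correction and detection rules, saturated spots left out, and each array left out. Leaving out slide 1 is the same as leaving out array 1, and slide 2 was not left out, as that would keep 1 array.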

Additional observations from a re-analysis of the deposited data

How the results depend on the processing

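Under 16 alternatives, 139 of 159 values of the main results moved by less than their spread (counts by less than 1.5 times) and 20 moved further. Part of the 139 could not have moved. The deposited value table is identical to the main input, and slide 2 only repeats the setting without array 1. Scaling alone changes neither detection nor shares, and neither scaling nor a detection rule can reorder the brightest names. The 25 brightest names were the same under all 16 except with the median of a miRNA's probes. There 22 of 25 stayed, miR-363, miR-429 and miR-96 entered and miR-18c, miR-22a and miR-430a left. The order at the top also changed. With the median of probes miR-20a came first (2.42), above miR-206 (2.35), miR-19b (2.33) and miR-9 (2.28). miR-20a was also first with the gene summary of Feature Extraction, and 9 of the first 10 names stayed in each of these settings. miR-19b came first with outlier spots kept and with the median of spots. With the median of probes the 10 brightest held 43.5% of the signal, the mean correlation between arrays was 0.989 and the median log2 signal of detected names was -1.68 (main values 39.3%, 0.994 and -0.87). The share was 38.3% with normexp, 34.4% with saturated spots left out, and 42.9% with the gene summary of Feature Extraction, an alternative chosen after seeing the data. Leaving out saturated spots left no spot of the brightest probes of miR-9 and miR-19b on arrays 1 and 2. The 34.4% therefore lacks these names on those arrays, and their rank in that setting rests on array 3. The median log2 signal was 0.92 with the percentile over all probes and 12.30 with no scaling, and a change of scale moves all names alike. It was -0.74 where every spot had to be well above background and -1.05 with the laxer flag of a positive and significant signal. These 2 rules also change which names enter the median. With the gene summary, which is a different measure and does not move all names alike, the median was -1.24. With the laxer flag 36 names were detected on no array and the correlation was 0.987. With slide 2 only, which is the setting without array 1 counted a second time among the 16, 24 names were detected on 1 of its 2 arrays.

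Leaving out each array in turn gave 112 to 135 names detected on every remaining array, 68 to 81 on none, 14 to 36 on some, 2 to 4 saturated, correlations of 0.991 to 0.998, median log2 signals of -1.04 to -0.84, and shares of 39.0% to 39.5%. Array 2 decided most: without it 135 names were detected on both others, 14 on 1 and 68 on none, and 2 were saturated. No paired analysis was possible because 1 group was described and no result comes from a test. Signal over background limits the dim names, saturation the brightest, and probe affinity any order between miRNAs.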

Other observations

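The array also held 14 names of other fish. The pufferfish miR-184 (fru-miR-184) was the 1 detected on all 3 arrays, with 2107, 2021 and 1930 units (-2.20 ± 0.11), beside 2127, 2058 and 1910 units (-2.19 ± 0.09) for the zebrafish miR-184. fru-miR-7 and fru-miR-142b were each detected on 1 array, and the other 11 on none.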
